A study of Homo sapiens with 12 samples.

Results

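The H3K27ac regions of chromosomes 9 and 22 number 3422 of 89076 merged regions, with 2380 on chromosome 9 and 1042 on chromosome 22. They were formed from 4 peak lists in hg19 coordinates, where peaks with an overlap of 1 bp or more were joined. A region was called gained where both CaboR libraries and no Caki library had a peak, lost where both Caki libraries and no CaboR library had one, shared where all 4 had one, and partial otherwise. The peaks themselves therefore chose the classes, and all counts, positions and scores of regions are given as a description, with no test. Caki is the parental Caki-1 line, an established human renal cell carcinoma line kept in RPMI medium. CaboR is the cabozantinib-resistant line selected from it in McCoy's medium, first at 5 µM and within 2 months at 20 µM cabozantinib, and then kept in 10 µM. The lines thus differ in drug, medium and selection at the same time, and their parts cannot be told apart. The study holds 12 samples, with 2 RNA libraries, 2 H3K27ac libraries and 2 DNA inputs for each line. The inputs were not analysed here. DNA copy number was not measured, so a share of regions by chromosome was not corrected for it.

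Cabozantinib inhibits several receptor tyrosine kinases, among them MET, AXL and the VEGF receptors. H3K27ac, the acetylation of lysine 27 on histone H3, is laid down by the acetyltransferases CBP and EP300 and marks active promoters and enhancers. Short separate peaks are typical of single enhancers, and broad domains of promoters or enhancer clusters in strong use. Chromosome 9 carries a large block of repetitive heterochromatin beside its centromere, and chromosome 22 is acrocentric, with a short arm of repeats and ribosomal DNA, so neither stretch gives many uniquely placed reads. The short arm of chromosome 9 holds CDKN2A and CDKN2B, cell cycle inhibitors that are often deleted in cancer. The long arm of chromosome 22 holds NF2 and SMARCB1, which are tumour suppressors. The base sequences of the regions are not printed.

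The peak lists held 52367 and 52856 peaks in CaboR, against 54810 and 57975 in Caki. The libraries of each line differed in peak shape: the median peak was 604 and 1041 bp wide in CaboR replicates 1 and 2, against 674 and 924 bp in Caki replicates 1 and 2. RNA library totals were 14664723 and 12851393 estimated counts in CaboR, against 10605113 and 10584083 in Caki. The CaboR RNA pair differed more than the Caki pair, with a chi-square statistic per gene of 48.4 in CaboR and 1.95 in Caki. Of 13 markers of a renal epithelial line, 10 stood above 1 TPM in all RNA libraries, while PAX2 and LRP2 were at 0. Blood markers summed to 39.1 and 31.2 TPM in CaboR and 69.1 and 72.3 TPM in Caki, nearly all from CD68, with CD3E at 0. Endothelial markers summed to 0.02 TPM in both CaboR libraries and at most 0.07 TPM in Caki, and stromal markers to 9.80 and 9.79 TPM in CaboR and 25.4 and 27.6 TPM in Caki. Nothing in the labels ties replicates to separate cultures, and p-values measure only the spread between these libraries, which may be technical.

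On both chromosomes gained regions outnumbered lost ones with all 4 libraries. Chromosome 9 had 124 gained regions, 5.21% of its regions, where gained regions made up 3.43% over all chromosomes. It had 45 lost regions, or 1.89%, where lost regions made up 3.92% over all chromosomes. Chromosome 22 had 69 gained regions (6.62%) and 19 lost ones (1.82%). The Wilson 95% interval of the gained share ran from 4.39% to 6.18% on chromosome 9 and from 5.27% to 8.30% on chromosome 22. These intervals cover counting error over regions only. The order of the classes depended on the Caki libraries. With Caki replicate 1 left out, chromosome 9 had 219 gained and 247 lost regions. With Caki replicate 2 left out, it had 208 and 229, and chromosome 22 had 88 and 137. A lost region then needs a peak in only 1 Caki library. Over all chromosomes, too, lost regions outnumbered gained ones, with 19271 against 4867 without Caki replicate 1 and 13219 against 5558 without Caki replicate 2. On chromosome 9 the gained share was 9.79% and 9.20% in these settings, above the 5.94% and 7.09% over all chromosomes. In both settings, both chromosomes had gained shares above and lost shares below those over all chromosomes. With all 4 libraries, chromosome 22 had the highest gained share of 23 chromosomes and chromosome 9 the rank 4. In lost share, chromosome 22 had the rank 2 from the lowest and chromosome 9 the rank 3. Chromosome 6 stood at the other end, with 2.04% gained and 6.47% lost. Shared regions were 568 on chromosome 9 (23.9%) and 296 on chromosome 22 (28.4%), against 21.8% on the other chromosomes.

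**Figure D1:**
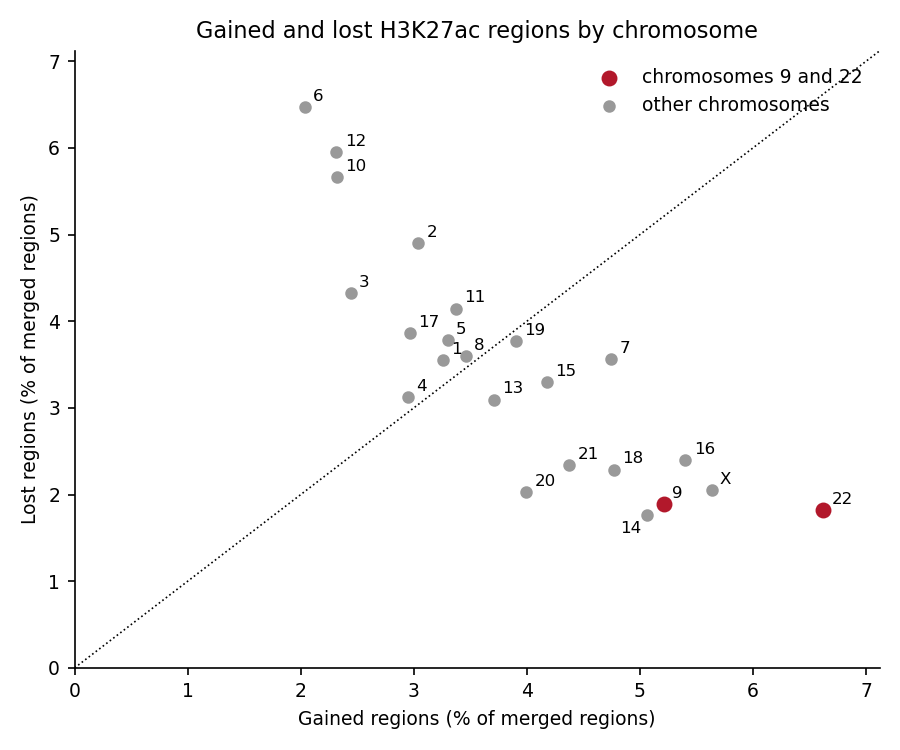
Share of merged H3K27ac regions that were gained in CaboR (horizontal axis, %) and lost (vertical axis, %) for each chromosome, with 1 point per chromosome and a dotted line at equal shares. Chromosomes 9 (5.21% and 1.89%) and 22 (6.62% and 1.82%) lie at the lower right, near chromosomes 14, 16 and X.

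Most regions lacked a peak in at least 1 library. Of the 3422 regions, 1484 (43.4%) had a peak in 1 library only, 604 (17.7%) in 2, 470 (13.7%) in 3 and 864 (25.2%) in all 4. CaboR replicate 2 alone gave 446 regions on chromosome 9 and 127 on chromosome 22, and CaboR replicate 1 alone gave 250 and 143. Caki replicate 1 alone gave 163 on chromosome 9 and 108 on chromosome 22, and Caki replicate 2 alone gave 196 and 51. On chromosome 9 the pair CaboR replicate 2 and Caki replicate 2, the 2 libraries with wide peaks, shared 140 regions that the others lacked, more than the 124 gained regions. The pair CaboR replicate 1 and Caki replicate 1 shared 25 in that way. On chromosome 22 these mixed pairs had 33 and 20 regions, both below the 69 gained ones.

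Peak counts separated the lines on chromosome 9 and overlapped on chromosome 22. Chromosome 9 held 1534 and 1734 peaks in CaboR, against 1518 and 1412 in Caki, which is 2.93% and 3.28% of the CaboR lists and 2.77% and 2.44% of the Caki lists. Both CaboR libraries were above both Caki libraries there, in counts by a narrow margin (1534 against 1518). How many other chromosomes had such an order was not counted. Chromosome 22 held 787 and 722 peaks in CaboR, against 763 and 549 in Caki, or 1.50% and 1.37% of the CaboR lists and 1.39% and 0.947% of the Caki lists. The low value was that of Caki replicate 2, and the lines overlapped. Covered length went with these shares, at 2.66% and 3.21% of all covered bases in CaboR and 2.43% and 2.16% in Caki for chromosome 9.

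Gain was not even along chromosome 9 with the peaks of both CaboR libraries required. Its first 3 bins of 10 Mb had few gained regions: 3 of 160 regions from 0 to 10 Mb (1.88%), 6 of 160 from 10 to 20 Mb (3.75%) and 0 of 118 from 20 to 30 Mb, where a count of 0 allows a share of up to 2.54%. Lost regions numbered 3, 3 and 5 in these bins, so the bin from 20 to 30 Mb was the only one of 13 compared with more lost than gained regions. Summed from 0 to 30 Mb, 9 of 438 regions were gained (2.05%, interval 1.08% to 3.86%) and 11 were lost (2.51%). The interval holds the 3.43% gained over all chromosomes. From 30 to 40 Mb the gained count was 15 of 230 (6.52%), with 3 lost. From 40 to 50 Mb it was 4 of 21 (19.0%, interval 7.67% to 40.0%), a share that rests on few regions. No region lay between position 47204008 and position 66457992, a gap of 19253983 bp where the median gap on this chromosome was 6762 bp. The bin from 60 to 70 Mb held 19 regions, under the minimum of 20, and was not compared.

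On the long arm of chromosome 9, gain with all 4 libraries was low next to the gap and higher further out. Gained regions were 4 of 143 from 70 to 80 Mb (2.80%) and 5 of 167 from 80 to 90 Mb (2.99%), with 3 and 4 lost. The bin from 90 to 100 Mb then had 24 gained and 6 lost of 276 regions (8.70% gained, interval 5.91% to 12.6%). It was followed by 6 of 135 gained (4.44%) from 100 to 110 Mb and 13 of 345 (3.77%) from 110 to 120 Mb. The outer bins had 11 of 173 (6.36%), 29 of 394 (7.36%) and 3 of 39 (7.69%). From 90 to 150 Mb together, 86 of 1362 regions were gained (6.31%, interval 5.14% to 7.73%) and 22 lost (1.62%). From 60 to 90 Mb, 10 of 329 were gained (3.04%, interval 1.66% to 5.50%) and 8 lost, so the intervals overlapped. The stretches were close with CaboR replicate 1 left out, at 28.9% gained from 60 to 90 Mb and 27.1% from 90 to 150 Mb. Their intervals overlapped (24.1% to 34.2% and 24.6% to 29.7%). The bin from 70 to 80 Mb was then the highest of the chromosome (36.9%), where 17.8% were gained over all chromosomes. With CaboR replicate 2 left out, the shares of the stretches were 13.6% and 24.7%, where 17.4% were gained over all chromosomes. These stretches were chosen after the bins had been seen.

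The low gain at the start of chromosome 9 moved with a single library. From 0 to 30 Mb, CaboR replicate 1 had 169 peaks and CaboR replicate 2 had 332, against 267 and 294 in Caki. CaboR replicate 1 was the lowest there and CaboR replicate 2 the highest, so the lines overlapped. Without CaboR replicate 1, the stretch from 0 to 30 Mb had 24.9% gained regions, against 27.3% from 30 to 150 Mb, with overlapping intervals (21.1% to 29.3% and 25.2% to 29.4%), where all 4 libraries gave 2.05% and 5.92%. Without CaboR replicate 2 the shares were 7.47% and 22.5%. Over all chromosomes the gained share was 17.8% without CaboR replicate 1 and 17.4% without CaboR replicate 2. Leaving out a library loosens the definition of a gained region and raises each share. The unevenness between the start and the rest of the chromosome was therefore present in CaboR replicate 1 and nearly absent in CaboR replicate 2. Without Caki replicate 1 the shares were 4.93% and 10.9%, where 5.94% of regions were gained over all chromosomes. Without Caki replicate 2 they were 5.76% and 9.94%, where 7.09% were. The peak count of CaboR replicate 1 stood beside this result, and its part in it was not tested.

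By description alone, the gained shares of chromosome 22 varied less between bins than those of chromosome 9. Chromosome 9 had 13 bins compared against 5, among them a bin of 21 regions, which can widen its range. Their part in this was not tested. All 5 bins had more gained than lost regions, and all 5 were above the gained share over all chromosomes and below its lost share. The bin from 10 to 20 Mb had 4 gained regions of 80 (5.00%), and that from 20 to 30 Mb had 15 of 178 (8.43%). The bin from 30 to 40 Mb, which holds the most regions, had 22 of 420 (5.24%), and that from 40 to 50 Mb had 22 of 306 (7.19%). The last bin, from 50 Mb on, had 6 of 58 (10.3%), the highest share, but it was the lowest bin with a score of at least 5 (2 of 40, 5.00%) and with CaboR replicate 1 left out (18.2%). The 5 Wilson intervals overlapped, from 1.96% to 12.2% for the first bin and from 4.83% to 20.8% for the last. They cover counting error over regions only and are wide at these numbers. Their overlap therefore does not show that gain was even. Lost regions numbered 0, 3, 10, 6 and 0, and the first and last bins, at 0, allow lost shares of up to 3.75% and 5.17%. On chromosome 9, 11 of 13 bins had more gained than lost regions, 9 were above the gained share over all chromosomes and 11 were below its lost share.

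**Figure D2:**
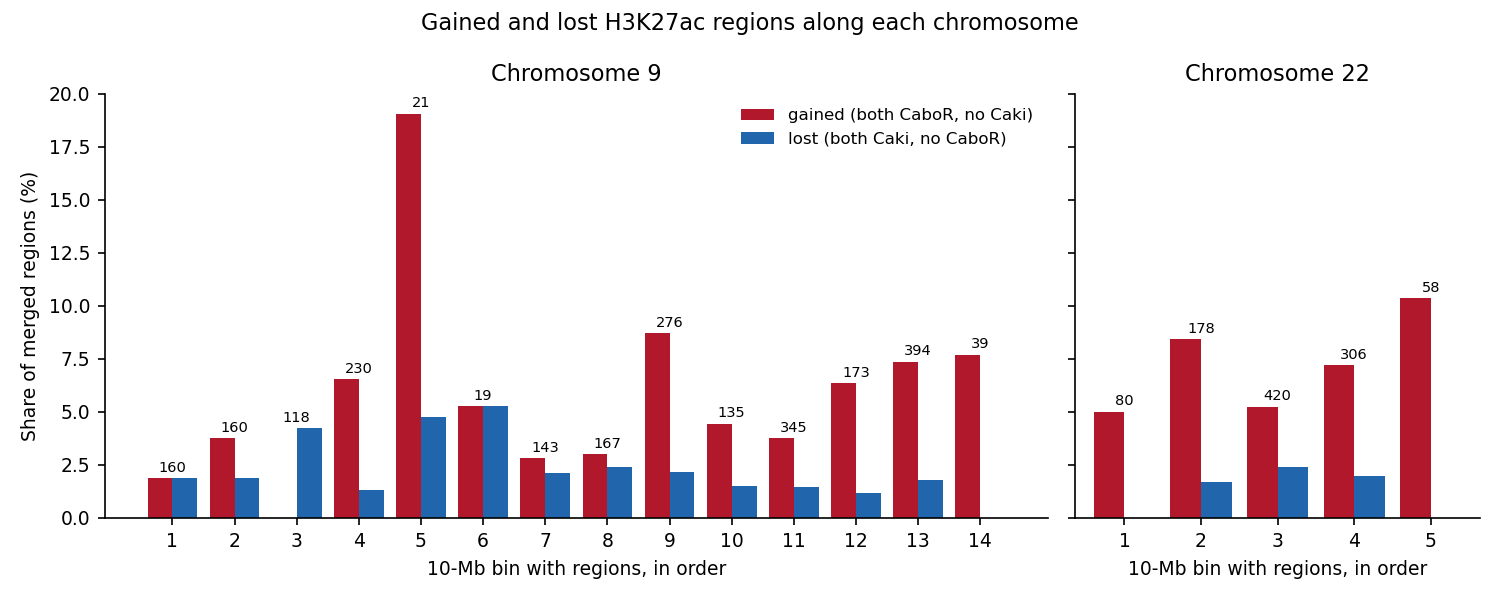
Share of merged H3K27ac regions (vertical axis, %) that were gained (red) or lost (blue) in each 10-Mb bin with regions, in order along chromosomes 9 (left) and 22 (right), with the number of regions above each pair of bars. Bins 1 to 3 of chromosome 9 have 9 gained regions in all and bin 9, from 90 to 100 Mb, has 24, while each bin of chromosome 22 has more gained than lost regions.

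In raw peak counts, bins rarely separated the lines. On chromosome 9 the lines overlapped in 10 of 13 bins, and both CaboR libraries were above both Caki libraries in the other 3. One of these was the bin from 90 to 100 Mb, with 203 and 214 peaks in CaboR, against 158 and 151 in Caki. The bin from 130 to 140 Mb, with the most gained regions, had 348 and 264 peaks in CaboR, against 276 and 205 in Caki, and there CaboR replicate 2 lay below Caki replicate 1. On chromosome 22 the bin from 10 to 20 Mb alone was apart, with 60 and 56 peaks in CaboR, against 55 and 47 in Caki. Bins of the other chromosomes were not counted in this way, so no background share stands beside these counts.

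**Figure D3:**
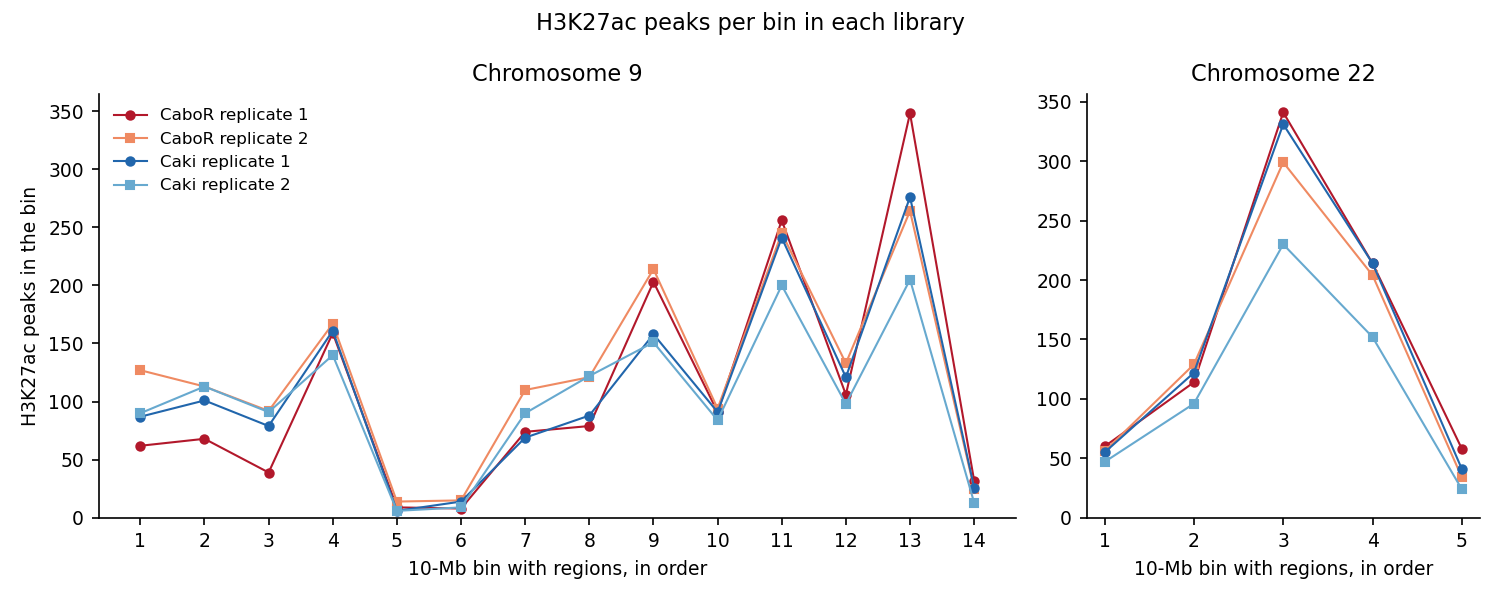
Number of H3K27ac peaks (vertical axis) in each 10-Mb bin with regions, in order along chromosomes 9 (left) and 22 (right), with 1 line per library. CaboR replicate 1 is lowest in bins 1 to 3 of chromosome 9, and both CaboR libraries lie above both Caki libraries in bin 9 (203 and 214, against 158 and 151). Lines join neighbouring bins with regions, also across the gap after bin 5.

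Peak scores did not follow the gained shares. The score is the authors' own value for each peak and was compared only after division by the median score of its list. On chromosome 9 the median peak stood at 1.02 and 1.01 times its list's median in CaboR, against 1.07 and 1.06 in Caki, so both CaboR libraries were lower. On chromosome 22 the ratios were 1.02 and 1.10 in CaboR and 1.07 and 1.11 in Caki, which overlap. By bin, both CaboR ratios were lower than both Caki ratios in 5 of 13 bins of chromosome 9 and in 1 of 5 bins of chromosome 22, and higher in 2 and 0. The bin from 90 to 100 Mb, with its many gained regions, was among the lower ones, at 1.02 and 1.01 in CaboR and 1.12 and 1.06 in Caki. The bin from 20 to 30 Mb, with no gained region, was among the higher ones, at 0.986 and 1.09 in CaboR and 0.959 and 0.964 in Caki. Scores repeat within a list: the median was the same on both chromosomes in CaboR replicate 1 (6.44) and in Caki replicate 1 (7.19). Small differences in these ratios, and the order of the lines by bin, therefore carry little weight. A score ratio within a list does not show how much acetylation a bin carries.

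Gained regions were narrower and weaker than shared ones. Over both chromosomes their median width was 1038 bp, against 869.5 bp for lost, 2338.5 bp for shared and 644 bp for partial regions. Their best peak stood at the percentile 42.1 of the CaboR replicate 1 list and 41.8 of the CaboR replicate 2 list. Lost regions stood at 38.6 and 36.7 in the Caki lists. Shared regions stood at 71.7 and 77.1 in the CaboR lists and 74.8 and 70.9 in the Caki lists. Gained regions lay at a median of 13844 bp from the nearest shared region and lost ones at 17768 bp. For partial regions this distance was 17054 bp and between shared regions it was 16782 bp. On chromosome 9 the distance was 11694 bp for gained and 27797 bp for lost regions, and on chromosome 22 the order turned, with 19395 bp for gained and 11863 bp for lost ones.

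Gained regions were also counted in windows of 1 Mb, with no comparison with an even spread. On chromosome 9, 53 of 117 windows with regions held a gained region, 20 held 1 and 17 held at least 3. The window from 92 to 93 Mb had 10 gained and 0 lost regions among 34. The window from 132 to 133 Mb had 8 gained and 1 lost among 87, and that from 35 to 36 Mb had 5 gained and 0 lost among 43. On chromosome 22, 27 of 33 windows held a gained region, 6 held 1 and 10 held at least 3. The windows from 39 to 40 Mb and from 50 to 51 Mb each had 6 gained and 0 lost regions, among 54 and 56. The window from 46 to 47 Mb had 6 gained and 1 lost among 65.

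The gained regions with the highest weaker score, meaning the lower of the line's 2 best peak scores, show how far the class reaches. On chromosome 9 the first was chr9:136324930-136325578, 649 bp wide, with scores of 15.0 and 19.5 in CaboR replicates 1 and 2 and no peak in Caki. It was followed by chr9:129553000-129554614 with 13.1 and 20.8. The region chr9:92076149-92084679 was the widest gained region of both chromosomes, at 8531 bp, and scored 12.2 and 16.1. It lies in the 1-Mb window with the most gained regions. The regions chr9:71734737-71737762, at 12.2 and 16.0, and chr9:114678606-114679177, at 11.6 and 13.5, completed the set. The first of these lies 636147 bp from the nearest shared region and the other 4911 bp from one. These 5 stood between the percentiles 70.9 and 86.1 of the CaboR lists.

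On chromosome 22 a single gained region stood out. The region chr22:47030412-47031819, 1408 bp wide, scored 17.7 and 19.1 in CaboR, at the percentiles 89.8 and 80.4 of the lists. The next were chr22:39183818-39185706 with 8.80 and 8.94, chr22:46773771-46774993 with 8.80 and 8.07, and chr22:46810032-46812614 with 7.99 and 17.5. The region chr22:42485823-42486787 scored 7.44 and 10.3. Of these 5, 2 lie in the window from 46 to 47 Mb, and the first lies just after it. The shared region with the highest weaker score on this chromosome, chr22:46458907-46488168, lies less than 1 Mb before the first gained region, is 29262 bp wide and scored 52.9 and 79.4 in CaboR and 62.0 and 54.4 in Caki. Its counterpart on chromosome 9 was chr9:14306167-14324613, with 73.6 and 60.9 in CaboR and 75.2 and 39.0 in Caki.

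Lost regions were ranked by weaker score in the same way, within the Caki lists, and raw scores were not compared between lists. The first on chromosome 9 was chr9:130597626-130598980, absent from CaboR and at 15.1 and 10.4 in Caki, only 1001 bp from a shared region. The next was chr9:69662952-69663524, the only lost region of the bin from 60 to 70 Mb, absent from CaboR and at 9.59 and 22.2 in Caki. The region chr9:91604159-91604686, at 7.97 and 7.83 in Caki, lies in the bin with 24 gained regions. On chromosome 22 the first lost region was chr22:31450624-31452081, absent from CaboR and at 10.5 and 9.74 in Caki. The region chr22:31568452-31569794, at 5.69 and 10.4 in Caki, lies in the same window from 31 to 32 Mb. In chromosome 9 the regions chr9:36572369-36573107 and chr9:31303955-31304645 scored between 8.78 and 11.8 in Caki, and the other 3 of chromosome 22 between 5.51 and 10.6.

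At the threshold of the merging rule, the smallest overlap that joined peaks was 4 bp on chromosome 9, in a shared region, and 2 bp on chromosome 22, in a partial one. The smallest gap that kept regions apart was 5 bp between a pair of shared regions on chromosome 9 and 1 bp between a pair of partial regions on chromosome 22. Joins under 50 bp numbered 22 and 16, and gaps under 50 bp numbered 10 and 8.

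RNA, which the merging rule did not use, was compared for the genes that the RefSeq gene table places on these chromosomes. Few genes of either chromosome passed the test, and the median change was above that of all genes on both. Of 509 tested genes on chromosome 9, 12 rose (2.36%) and 6 fell (1.18%), where 2.96% rose and 3.41% fell over all genes tested (edgeR quasi-likelihood test, adjusted p under 0.05). Of 293 on chromosome 22, 10 rose (3.41%) and 2 fell (0.683%). The rising shares were near the background and the falling shares below it. On chromosome 9 falls outnumbered rises with either Caki library left out, as they did over all genes tested. Its shares of rises and of falls were then near or below those over all genes. The median log2 fold change, CaboR over Caki, was 0.12 on chromosome 9, 0.21 on chromosome 22 and 0.02 over all genes tested. The median was the highest of 23 chromosomes for chromosome 22, with chromosome 16 next at 0.19, and had the rank 7 for chromosome 9. Without CaboR replicate 2 the median of chromosome 22 was 0.12, at rank 7, and without CaboR replicate 1 it was 0.29, at rank 2. Against the mean of the Caki pair, the median of CaboR replicates 1 and 2 was 0.11 and 0.08 on chromosome 9, and 0.13 and 0.29 on chromosome 22.

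The lean was made of many small differences. On chromosome 22, 138 of 293 genes (47.1%) had both CaboR libraries above both Caki libraries, where 30.9% of all genes tested did, and 50 (17.1%) had both below, where 29.7% did. On chromosome 9 the shares were 35.0% above and 18.5% below. Bulk RNA does not tell more cells of a kind from more RNA per cell. As a share of all deposited TPM, chromosome 22 stood at 1.41% and 1.42% in CaboR and 1.40% and 1.39% in Caki (two-sided exact permutation test, p = 0.333, the smallest that 2 against 2 libraries allow). Chromosome 9 stood at 2.01% and 2.10% in CaboR and 2.03% and 2.03% in Caki (exact permutation test, p = 1.0).

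Along the chromosomes, RNA was summarised in windows of 25 neighbouring tested genes, in the gene order of the RefSeq table. On chromosome 22 the median log2 fold change was above 0 in 12 of 12 windows, between 0.09 and 0.30. The highest was the window from FAM211B to CABP7 and the lowest that from ZMAT5 to PIK3IP1. On chromosome 9 it was above 0 in 17 of 21 windows, between -0.05 and 0.44. The highest was the window from COQ4 to IER5L, followed by 0.41 in the last 9 genes, from NOXA1 to EHMT1, and by 0.37 from EDF1 to EXD3, where 16 of 25 genes had both CaboR libraries above both Caki libraries. The spread along chromosome 9 came mostly from CaboR replicate 2, whose window medians ran from -0.25 to 0.61, against -0.04 to 0.26 in CaboR replicate 1. In the first window, from FOXD4 to KDM4C, CaboR replicate 1 had a median of 0.14 and CaboR replicate 2 one of -0.19. The gene order is from GRCh38 and the regions are in hg19, so windows and bins were not matched.

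**Figure D4:**
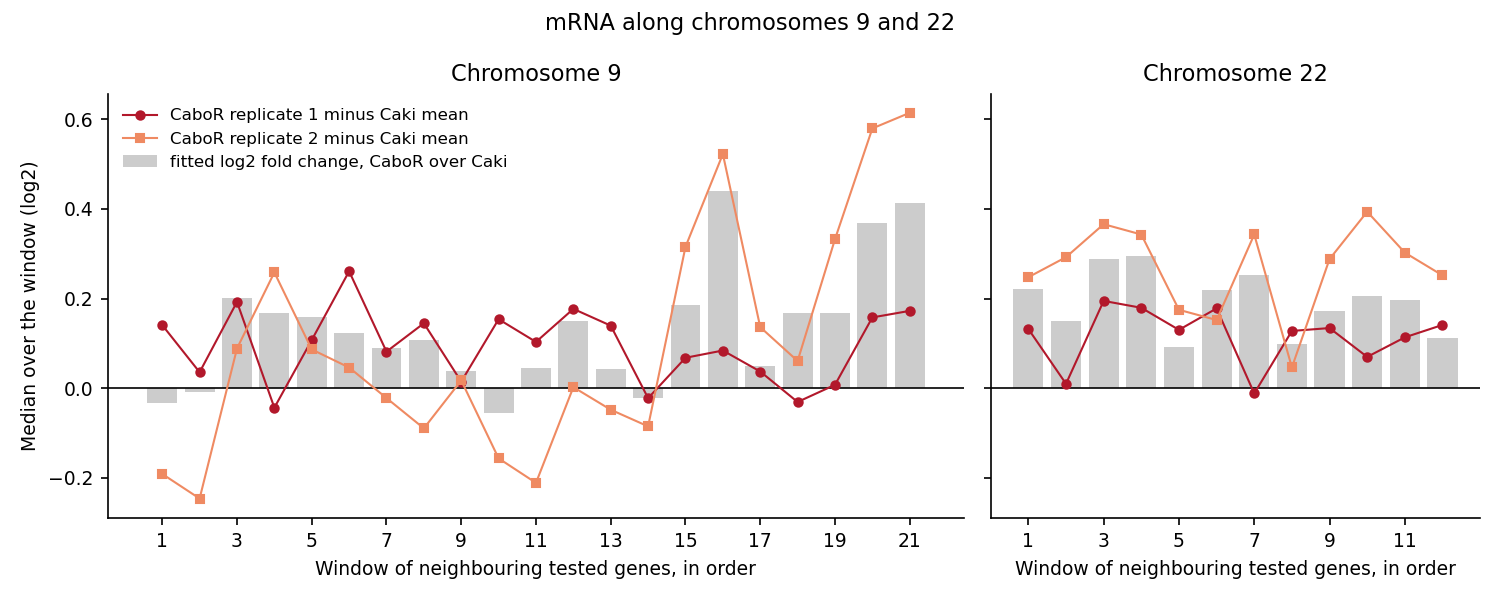
Median log2 difference of mRNA (vertical axis) in windows of 25 neighbouring tested genes, in order along chromosomes 9 (left) and 22 (right). Red and orange lines are the CaboR libraries against the mean of the Caki pair, and grey bars are the fitted log2 fold change, CaboR over Caki. All 12 bars of chromosome 22 are above 0, and on chromosome 9 CaboR replicate 2 ranges from -0.25 to 0.61.

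Among the genes of chromosome 9 that rose, enzymes and secreted proteins had the largest changes. PSAT1, the transaminase of serine synthesis, stood at 244 and 210 CPM, the normalised read count, in CaboR, against 79.0 and 80.7 CPM in Caki. The libraries of each line were close and the lines far apart, with a log2 fold change of 1.51 ± 0.15 (SE from the edgeR fit, n = 2 per line, edgeR adjusted p = 0.00891). ANGPTL2, a secreted angiopoietin-like glycoprotein, stood at 8.99 and 10.95 CPM in CaboR, against 3.80 and 2.52 CPM in Caki (log2 fold change 1.65 ± 0.30, edgeR adjusted p = 0.0349). PTGDS, a synthase of prostaglandin D2, stood at 63.1 and 113 CPM in CaboR, against 30.8 and 29.9 CPM in Caki. Its CaboR libraries differed widely but both lay above Caki (1.54 ± 0.29, edgeR adjusted p = 0.0375), though with limma-voom it missed the threshold (adjusted p = 0.0533). FAM69B, whose RefSeq symbol is DIPK1B, stood at 21.5 and 30.7 CPM in CaboR and 9.44 and 9.01 CPM in Caki.

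The transcription factor KLF4 stood at 7.56 and 6.45 CPM in CaboR, against 2.73 and 2.71 CPM in Caki (log2 fold change 1.36 ± 0.27, edgeR adjusted p = 0.0435). PTGR1, a reductase that inactivates prostaglandins and leukotriene B4, rose by 0.88 on the log2 scale. All of these genes had both CaboR libraries above both Caki libraries.

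The genes of chromosome 9 that fell include matrix proteins and a receptor. SVEP1, a large extracellular matrix protein, stood at 0.582 and 0.311 CPM in CaboR, against 5.36 and 4.94 CPM in Caki. This is the largest called fall among the named genes, though at a low level (log2 fold change -3.47 ± 0.41, edgeR adjusted p = 0.0129). S1PR3, a receptor for sphingosine 1-phosphate, stood at 3.75 and 2.64 CPM in CaboR, against 14.6 and 14.6 CPM in Caki (-2.18 ± 0.26, edgeR adjusted p = 0.0129). ADAMTSL1, a secreted protein related to the ADAMTS proteases but without protease activity, stood at 19.7 and 9.09 CPM in CaboR, against 53.6 and 53.4 CPM in Caki (-1.89 ± 0.35, edgeR adjusted p = 0.0362). RECK, a membrane-anchored inhibitor of metalloproteinases, had a log2 fold change of -1.13 (edgeR adjusted p = 0.0497), and GOLM1, a Golgi membrane protein, one of -0.64 (edgeR adjusted p = 0.0498). Both calls lay just inside the threshold.

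On chromosome 22 the clearest changes were in FBLN1 and SCARF2. FBLN1, which encodes the matrix glycoprotein fibulin-1, stood at 52.3 and 72.6 CPM in CaboR, against 17.8 and 17.9 CPM in Caki (log2 fold change 1.80 ± 0.21, edgeR adjusted p = 0.0129). SCARF2, a member of the scavenger receptor family, stood at 5.56 and 5.59 CPM in CaboR, against 33.4 and 29.2 CPM in Caki (-2.49 ± 0.19, edgeR adjusted p = 0.00406). It had the smallest adjusted p of the named genes. CHCHD10, a mitochondrial intermembrane protein, stood at 37.4 and 42.6 CPM in CaboR, against 16.2 and 14.8 CPM in Caki (1.37 ± 0.17, edgeR adjusted p = 0.0142). KREMEN1, a receptor for the WNT inhibitor DKK1, averaged 10.3 ± 1.46 CPM in CaboR, against 3.40 ± 0.56 CPM in Caki (SD, n = 2 each), a log2 fold change of 1.59 ± 0.27 (SE, edgeR adjusted p = 0.0292).

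TUBA8, an alpha tubulin, stood at 7.95 and 6.68 CPM in CaboR, against 1.85 and 2.42 CPM in Caki (log2 fold change 1.77 ± 0.30, edgeR adjusted p = 0.0292). TCN2, which encodes the vitamin B12 carrier transcobalamin, rose by 1.18 ± 0.22 on the log2 scale. USP18, which removes the interferon-induced modifier ISG15, rose by 1.23 ± 0.24, and its value is uncertain because a near-identical copy, USP41, could share its reads. HMOX1, the stress-induced heme oxygenase, stood at 210 and 149 CPM in CaboR, against 89.9 and 92.7 CPM in Caki (0.98 ± 0.20, edgeR adjusted p = 0.0448). These genes, too, had both CaboR libraries above both Caki libraries.

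**Figure D5:**
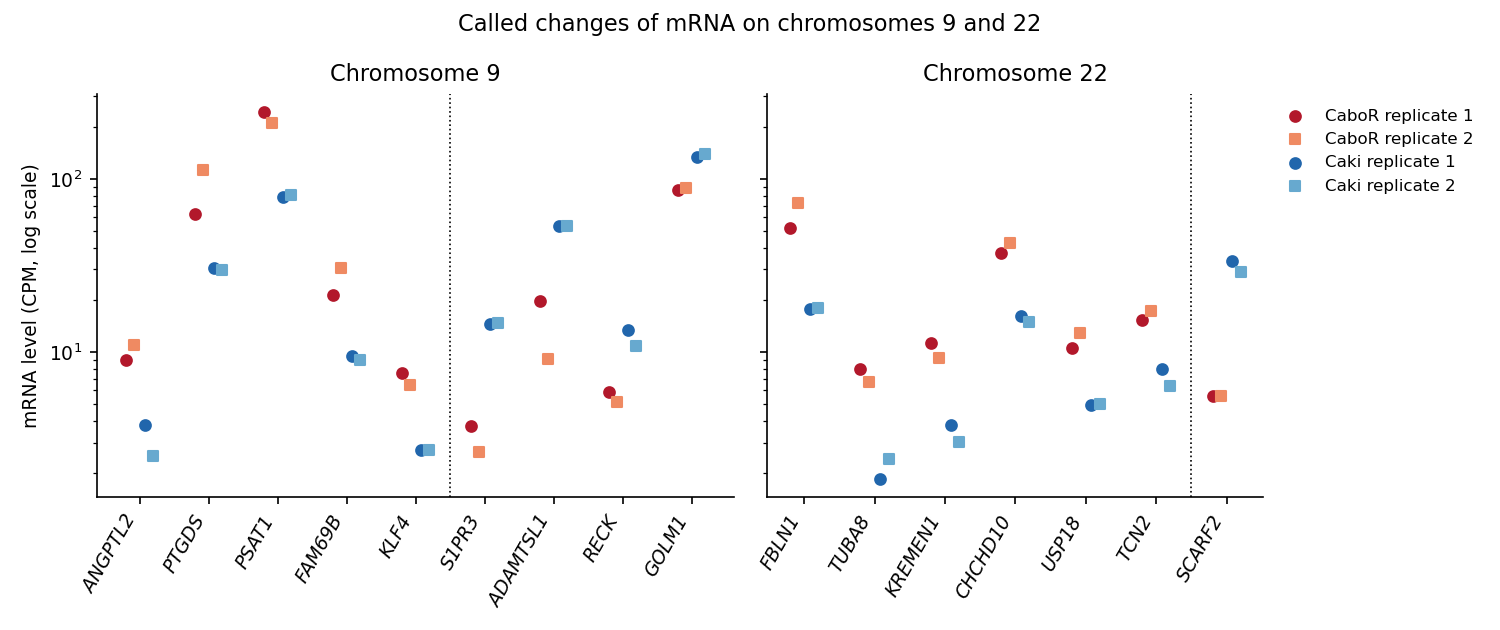
mRNA level (vertical axis, CPM, log scale) of genes among the largest called changes on chromosomes 9 (left) and 22 (right), with 1 point per library, CaboR in red and orange and Caki in blue tones. Genes left of the dotted line rose and genes right of it fell, and the lines do not overlap for any of the 16 genes.

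Of the 19 named genes that passed, 7 passed under all 10 alternatives: PSAT1, FAM69B, S1PR3, ADAMTSL1, SVEP1, FBLN1 and SCARF2. With limma-voom, 5 of the 19 missed the threshold, namely PTGDS, KLF4, RECK, GOLM1 and HMOX1, with adjusted p-values between 0.0508 and 0.0545. RECK and GOLM1 missed it with library totals, and GOLM1 also without the filter. Without Caki replicate 1, 8 of the 19 missed the threshold, namely KLF4, RECK, GOLM1, PTGR1, TUBA8, USP18, TCN2 and HMOX1, with adjusted p-values between 0.0991 for TCN2 and 0.554 for GOLM1. Without Caki replicate 2, 10 missed it: the same genes except TUBA8, and ANGPTL2, KREMEN1 and CHCHD10, with adjusted p-values between 0.0725 for CHCHD10 and 0.637 for GOLM1.

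To show the start of the genes that changed most on each chromosome, the 250 bases before the RefSeq start of the gene with the largest rise and the largest fall among those above the level minimum are printed, in GRCh38.p14, another build than that of the peaks. Each sequence runs 5′ to 3′ on the gene's strand, and capitals mark the GC box GGGCGG or its reverse complement CCGCCC. ANGPTL2 lies at chr9:127122636-127122885 on the minus strand, S1PR3 at chr9:88990613-88990862 on the plus strand, FBLN1 at chr22:45502633-45502882 on the plus strand and SCARF2 at chr22:20437826-20438075 on the minus strand.
ANGPTL2: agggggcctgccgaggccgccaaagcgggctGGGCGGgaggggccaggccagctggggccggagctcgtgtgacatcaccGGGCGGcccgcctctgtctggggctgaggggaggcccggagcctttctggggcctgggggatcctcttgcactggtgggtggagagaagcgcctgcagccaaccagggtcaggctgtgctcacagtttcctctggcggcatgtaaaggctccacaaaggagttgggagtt
S1PR3: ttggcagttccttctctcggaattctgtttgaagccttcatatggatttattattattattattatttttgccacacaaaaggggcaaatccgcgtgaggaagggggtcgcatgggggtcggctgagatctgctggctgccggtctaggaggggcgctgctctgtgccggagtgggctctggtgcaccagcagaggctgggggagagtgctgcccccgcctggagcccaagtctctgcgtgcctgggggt
FBLN1: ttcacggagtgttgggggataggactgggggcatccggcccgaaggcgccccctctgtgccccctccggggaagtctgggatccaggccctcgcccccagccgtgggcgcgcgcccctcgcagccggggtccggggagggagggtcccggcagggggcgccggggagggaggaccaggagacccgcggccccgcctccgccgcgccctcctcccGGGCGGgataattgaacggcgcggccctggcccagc
SCARF2: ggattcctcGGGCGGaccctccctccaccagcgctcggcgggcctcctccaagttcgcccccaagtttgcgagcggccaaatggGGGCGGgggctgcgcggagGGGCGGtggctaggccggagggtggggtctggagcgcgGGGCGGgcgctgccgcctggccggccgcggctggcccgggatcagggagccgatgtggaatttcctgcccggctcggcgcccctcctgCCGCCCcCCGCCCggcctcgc

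SCARF2 had 6 matches of the GC box and 30 CpG pairs, and FBLN1 had 1 match and 27 pairs, both at 77.6% G and C. ANGPTL2 had 2 matches and 12 pairs at 68.4%, and S1PR3 had 0 matches and 10 pairs at 57.2%. The share of promoter windows of this length that held a GC box was 45.0% on chromosome 9 and 50.6% on chromosome 22, against 42.6% of all 35116 in the table. A match is a string of letters and not a bound site. Gained regions were not placed against these windows, because the builds differ.

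The lists of chromosome 9 had medians between -0.16 and 0.23 on the log2 scale, and the matrix list held genes called in both directions. Of 6 tested tumour suppressor and cell cycle genes 0 passed with edgeR and 0 with DESeq2, and 2 had an unadjusted p under 0.05, at a median log2 fold change of -0.16. CDKN2A and CDKN2B had 0 counts in all 4 libraries, which allows up to 3 counts in each. Their neighbour MTAP, an enzyme of methionine salvage, stood at 38.5 and 30.9 CPM in CaboR and 34.1 and 35.5 CPM in Caki. Its lines overlapped, as did those of TUSC1 at 23.5 and 33.1 CPM in CaboR and 24.9 and 22.3 CPM in Caki. Of 16 signalling and transcription genes 1 rose, KLF4 (6.25%), and 0 fell, at a median of 0.01. Of 16 matrix, adhesion and secreted genes 2 rose, among them ANGPTL2, and 2 fell, SVEP1 and ADAMTSL1, at a median of 0.07. These are 12.5% each way, beside 2.96% and 3.41% of all genes tested, for a list chosen with earlier results known. DESeq2 also called 2 higher but 4 lower, adding the collagen gene COL5A1 and PAPPA, a secreted metalloproteinase, where it called 4.76% higher and 5.76% lower over all genes. Of 18 metabolism and transport genes, PSAT1 and PTGR1 rose (11.1%) and 0 fell, at a median of 0.23. Over all genes tested 2.96% rose and 3.41% fell, and this list, too, was chosen with earlier results known.

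On chromosome 22 the stress and redox genes had the highest median of the 9 lists, 0.36. Of its 13 tested genes 1 rose with edgeR, HMOX1 (7.69%), and 2 with DESeq2, HMOX1 and DDT (15.4%). Over all genes tested 2.96% rose with edgeR and 4.76% with DESeq2. Both CaboR libraries were above both Caki libraries in 9 of 13 (69.2%), where 47.1% of the tested genes of chromosome 22 and 30.9% of all genes did so, and below them in 1. Of 4 apolipoprotein L genes 0 passed with edgeR and 1, APOL6, with DESeq2, and 2 had an unadjusted p under 0.05, at a median of 0.15. APOL1 stood at 79.2 and 97.6 CPM in CaboR and 122 and 130 CPM in Caki, and APOL2 at 43.2 and 44.2 CPM in CaboR and 43.5 and 46.2 CPM in Caki. Of 5 APOBEC3 cytidine deaminase genes 0 passed with edgeR and 0 with DESeq2, and 2 had an unadjusted p under 0.05, at a median of 0.27. APOBEC3C stood at 63.6 and 61.3 CPM in CaboR and 44.2 and 46.4 CPM in Caki (log2 fold change 0.46, edgeR adjusted p = 0.114), and APOBEC3B at 15.8 and 21.1 CPM in CaboR and 10.7 and 9.60 CPM in Caki (0.86, edgeR adjusted p = 0.0818).

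Of 7 tested matrix, adhesion and cytoskeleton genes of chromosome 22 only FBLN1 rose (14.3%, against 2.96% over all genes) and 0 fell, at a median of 0.06. TIMP3, an inhibitor of metalloproteinases, had 0 counts in all 4 libraries. Of 20 signalling and chromatin genes 0 passed with edgeR and 1, PDGFB, rose with DESeq2 (5.00%, near the 4.76% over all genes). An unadjusted p under 0.05 was reached by 5, at a median of -0.07, below the chromosome's 0.21. LIF, a cytokine of the interleukin 6 family, stood at 237 and 271 CPM in CaboR and 325 and 322 CPM in Caki (log2 fold change -0.35, edgeR adjusted p = 0.186). SMARCB1, a subunit of the SWI/SNF chromatin remodeller, stood at 60.2 and 86.7 CPM in CaboR and 51.8 and 51.2 CPM in Caki (0.51, edgeR adjusted p = 0.183). Over both chromosomes, an unadjusted p under 0.05 was reached by 65 higher and 27 lower genes on chromosome 9 and by 60 higher and 13 lower genes on chromosome 22. These are 12.8% and 5.30% on chromosome 9 and 20.5% and 4.44% on chromosome 22, where 13.4% and 13.6% of all genes tested reached it.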

How the data were processed

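RNA was measured in 4 libraries and H3K27ac in 4, with 2 of each per line, and chromatin came from cells fixed for 10 min in 1% formaldehyde, per the labels' protocols. The authors deposited RSEM estimated counts and TPM per gene symbol, 20114 in each library, per the file headers. The estimated counts (3.16% fractional) were rounded. For each H3K27ac library the authors deposited a peak list, which gives positions and a score. The builds GRCh38 and hg19 and the tools STAR, RSEM and DESeq2 1.40.2 are listed in the submitters' processing notes, with no role for any. Which caller made the peaks, whether it used the inputs and what the score means is not given in the sources used here. Peaks of chromosome 1 end at up to 249240417, beyond its length in GRCh38, and were read as hg19.

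Peaks were merged with Python 3.11.15 and pandas 2.3.3, and each region was put in a 10-Mb bin by its midpoint. Bins with at least 20 regions were compared. Intervals are Wilson 95% intervals, and a count of 0 allows up to 3 counts. RNA was tested with edgeR 4.0.16 (R 4.3.3): filterByExpr (12792 genes left), TMM scaling, the quasi-likelihood F test of line, with no other term, and Benjamini-Hochberg adjustment over all tested genes at 0.05. The SE of a log2 fold change is its size divided by the square root of the F statistic. It thus rests on a spread moderated over all genes and not on the libraries of that gene alone. Levels are TMM-scaled CPM. In RefSeq's table (GRCh38.p14), 12591 tested genes matched a chromosome and 201 did not. No coordinates were converted, and no region was assigned to a gene. Reads of overlapping genes cannot be told apart, which touches ANGPTL2, FAM69B, ADAMTSL1, SVEP1, PTGR1, KREMEN1, CHCHD10, MTAP, APOBEC3B, LIF and SMARCB1.

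The members, the 9 gene lists (149 entries) and the rules were chosen with earlier results of these data known. Named genes were the 6 largest rises and falls per chromosome among passing genes with a mean log2 CPM of at least 2 and separate lines, up to 2 rises and 2 falls of each list, or its 2 most abundant members where none passed. A gene this rule took is not reported here. Named regions were the 5 gained, 5 lost and 1 shared with the highest weaker score. On simulated data the scripts returned the regions and the changes they were made with. The RNA counts were simulated with the same spread in both lines, unlike the CaboR and Caki pairs here, so the test was not checked at unequal spread. Alternatives for RNA were scaling by DESeq2 size factors or by library totals, testing genes with at least 1 count, the Wald test of DESeq2 1.42.0, limma-voom (limma 3.58.1), a term for the replicate number and leaving out each library. For regions they were merging within 500 bp, cover of 50% of a region, equal lists of 52367 best peaks, a score of at least 5, bins of 5 Mb or shifted by 5 Mb and leaving out each library.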

Additional observations from a re-analysis of the deposited data

How the results depend on the processing

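Gained and lost counts stayed within 1.5 times when lists had equal numbers of peaks, when 50% cover was asked and when peaks within 500 bp were merged. With a score of at least 5, chromosome 9 had 82 gained and 26 lost regions, with a gained share of 5.33%. Leaving out a library loosens each class. Gained counts then ran from 208 to 574 on chromosome 9 and from 88 to 248 on chromosome 22, and lost counts from 62 to 247 and from 34 to 137. Gained shares ran from 9.20% to 26.8% and from 8.60% to 24.0%, above the share over all chromosomes each time, and lost shares were below theirs each time. Lost regions outnumbered gained ones without Caki replicate 1 on chromosome 9 (247 lost, 219 gained), and without Caki replicate 2 on chromosomes 9 (229 and 208) and 22 (137 and 88). Over all chromosomes lost regions outnumbered gained ones in both of these settings as well. The share of the highest bin ran from 20.0% to 36.9% on chromosome 9 and from 12.5% to 36.7% on chromosome 22, and that of the lowest from 1.79% to 19.3% and from 7.49% to 20.5%. The bin from 20 to 30 Mb stayed the lowest of chromosome 9 in each of these, while the highest bin changed. With a score of at least 5 or merging within 500 bp the highest was that from 90 to 100 Mb (9.34% and 9.52%). The stretches of chromosome 9 were added after seeing the data.

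For RNA, same-numbered libraries shared only a number, and their deviations from the line means had a correlation of -0.0464. With a replicate block, 27 genes rose (5.30%) and 15 fell (2.95%) on chromosome 9, and 26 rose (8.87%) and 5 fell (1.71%) on chromosome 22. Over all genes 860 rose (6.72%) and 1020 fell (7.97%). APOBEC3B passed with this block (edgeR adjusted p = 0.0257). DESeq2's Wald test gave 13 falls on chromosome 9 (2.55%, against 5.76% over all genes) and 19 rises on chromosome 22 (6.48%, against 4.76%). With limma-voom 7 genes rose on chromosome 9 (1.38%, against 2.40% over all genes). Library totals alone moved the median of all genes to 0.10 and those of chromosomes 9 and 22 to 0.20 and 0.29. Leaving out a library gave 5 to 144 rises and 8 to 98 falls on chromosome 9, and 2 to 122 rises and 1 to 38 falls on chromosome 22, the most without CaboR replicate 1. The medians ran from 0.079 to 0.13 and from 0.12 to 0.29. With 1 library of a line left, the spread comes from the other line's pair and the lone library is assumed to vary like it. None of the 30 called genes of chromosomes 9 and 22 turned its direction under the 10 alternatives. Among genes that did not pass, MTAP (log2 fold change -0.0025) stood at 0.083 with library totals and from -0.17 to 0.14 with a library left out (0.018 without Caki replicate 2), APOL2 at 0.043 with library totals, and TUSC1 from -0.016 without CaboR replicate 2 to 0.49 without CaboR replicate 1. The cause of these shifts was not tested. With 2 libraries per line, the exact permutation test of a single value per library cannot pass the threshold.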

Other observations

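Other genes of these chromosomes passed the test but were not taken by the rule for named genes, and they are named after their values were seen. On chromosome 9, AMBP, the precursor of alpha-1-microglobulin and bikunin, stood at 7.05 and 7.15 CPM in CaboR, against 1.36 and 0.679 CPM in Caki (log2 fold change 2.79, edgeR adjusted p = 0.0178). PTPN3, a tyrosine phosphatase, rose by 1.05 on the log2 scale. COQ4, an enzyme of coenzyme Q synthesis, rose by 0.92, SLC27A4, a fatty acid transporter, by 0.86 and SWI5, a recombination repair protein, by 0.84. The read-through transcript DNAJC25-GNG10 also passed as lower, and its value is uncertain because it shares reads with its parts.

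On chromosome 22, INPP5J, an inositol polyphosphate 5-phosphatase, stood at 2.07 and 2.41 CPM in CaboR, against 0.487 and 0.388 CPM in Caki (log2 fold change 2.33, edgeR adjusted p = 0.0408). KIAA0930 rose by 0.71 on the log2 scale. RASD2, a small GTPase, stood at 1.87 and 2.10 CPM in CaboR, against 6.62 and 5.62 CPM in Caki (-1.62, edgeR adjusted p = 0.0339).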
